A study of Mus musculus with 4 samples.

Results

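Smooth muscle and vessel wall spots were positions on the sections chosen for their transcripts of smooth muscle. The score of a spot was the sum of its unique molecular identifier (UMI) counts for Acta2, Myh11, Tagln, Cnn1 and Des, divided by all its UMIs. Among spots with at least 500 UMIs, the 100 highest-scoring spots of each section with at least 2 UMIs of these 5 genes were taken, with ties going to the deeper spot. This gave 250 of 27040 spots, called muscle marker spots here. A Visium spot is a small area of tissue that can hold several cells of different types, so a spot is a region and not a cell.

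The sections came from the pancreas of adult C57Bl/6 mice, 1 mouse to a section. Ehmt2 (G9a) places mono- and dimethyl marks on lysine 9 of histone H3. The group Ehmt2 +/+ had 2 sections, called +/+ 1 and +/+ 2, and the group Ehmt2 fl/fl had 2 sections, called fl/fl 1 and fl/fl 2. All 4 mice carried Pdx1-Cre, which in Ehmt2 fl/fl mice removes Ehmt2 from cells of the Pdx1 lineage, the pancreatic epithelium. Smooth muscle does not arise from that lineage. All mice were fasted for 12 h and then received caerulein, a cholecystokinin analog that causes acute pancreatitis, at 50 μg/kg in 8 hourly injections. Tissue was taken 18 h after the first of these, and no section of an untreated pancreas was analysed here. The spots with at least 500 UMIs held 43995961 and 7901144 UMIs in +/+ 1 and +/+ 2, and 6704603 and 8008393 in fl/fl 1 and fl/fl 2. Sections +/+ 1 and fl/fl 1 shared slide 1 and sections +/+ 2 and fl/fl 2 shared slide 2. Both +/+ sections lay in capture area B1 and both fl/fl sections in A1, and Y-linked transcripts were found only in the fl/fl mice among the spots chosen here, so capture area, sex and genotype cannot be told apart.

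Smooth muscle surrounds the arteries, veins and larger ducts of the pancreas. Its contraction runs through myosin: calcium and calmodulin activate a kinase that phosphorylates the regulatory light chain, actin and tropomyosin filaments slide, and a phosphatase ends the cycle. In an artery the muscle cells also lay down elastin and microfibrils, and they touch endothelium on one side and fibroblasts of the adventitia on the other.

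The number of muscle marker spots was 75 in +/+ 1, 9 in +/+ 2, 100 in fl/fl 1 and 66 in fl/fl 2. Only fl/fl 1 filled the quota, with 111 spots that qualified. There the last spot taken had 0.1307% of its UMIs in the 5 genes. The first left out with at least 2 marker UMIs had 0.1304%, and spots left out with 1 UMI reached 0.2%. In the other sections the minimum of 2 UMIs set the limit, and spots left out with 1 UMI reached a score of 0.174% in +/+ 1, 0.2% in +/+ 2 and 0.199% in fl/fl 2. The lowest scores taken there were 0.0114%, 0.0636% and 0.0376%, so in every section some spots left out had higher scores than some that were taken. Most of the chosen spots rested on few molecules. Exactly 2 marker UMIs were held by 46, 8, 61 and 51 of them in +/+ 1, +/+ 2, fl/fl 1 and fl/fl 2, and 3 or more by 29, 1, 39 and 15. The richest spot had 13 marker UMIs and lay in fl/fl 1, where the score reached 2.17%.

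**Figure D1:**
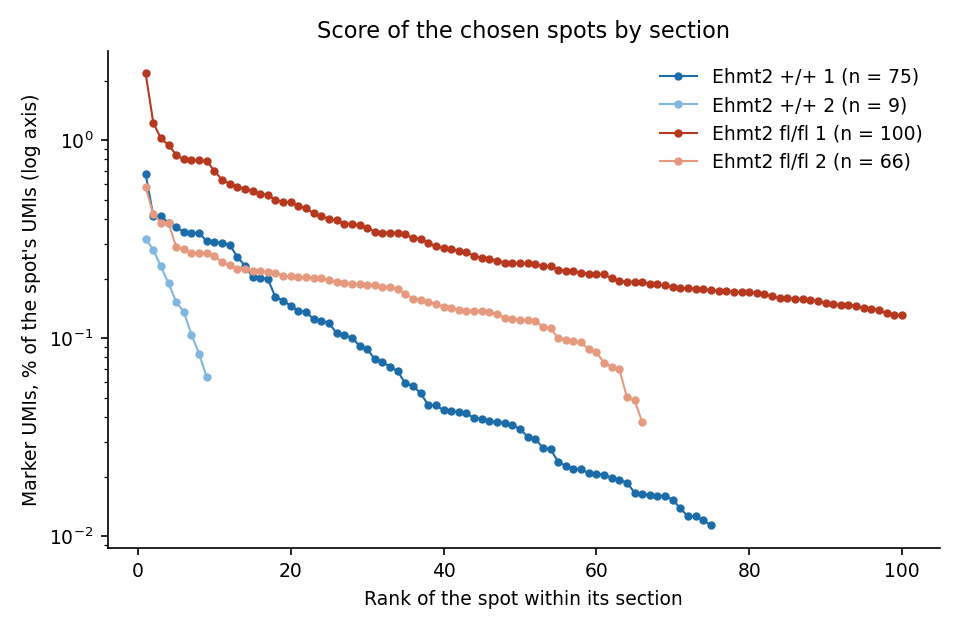
Score of each muscle marker spot (marker UMIs as a percentage of the spot's UMIs, log axis) against its rank within its section, one line per section. The fl/fl 1 line lies above the others at every rank, and the +/+ 2 line ends after 9 spots.

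The depth of the spots differed between sections, which changed what 2 UMIs meant. The median muscle marker spot held 4604 UMIs in +/+ 1 against 1310 in +/+ 2, 974 in fl/fl 1 and 1389 in fl/fl 2. The other spots had medians of 6365.5, 875, 988 and 1117.5 UMIs. One UMI in the summed muscle marker spots was therefore worth 2.27 counts per 1000000 UMIs (CPM) in +/+ 1 but 72.4 CPM in +/+ 2, 10.2 in fl/fl 1 and 9.68 in fl/fl 2. The 9 spots of +/+ 2 held 13943 UMIs together, so a gene listed at 0 there may have been present at up to 217 CPM (3 counts, counting error only), and few genes can be read in that section. The sections share most of their barcodes, with 13898 listed in all 4, and 2, 0, 2 and 2 of the chosen positions were also chosen in another section.

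The 5 genes that defined the spots are described without a test. Tagln (transgelin, an actin-binding protein) was seen in 172 of the 250 spots, Myh11 (smooth muscle myosin heavy chain) in 124, Des (desmin, the muscle intermediate filament) in 87, Acta2 (smooth muscle α-actin) in 75 and Cnn1 (calponin) in 17. No spot held all 5, 152 spots held 2 of them and 64 spots held UMIs of 1 gene only. Tagln stood at 197 CPM in +/+ 1, 145 in +/+ 2, 1167 in fl/fl 1 and 629 in fl/fl 2. Myh11 stood at 113, 724, 737 and 378 CPM in the same order. Acta2 reached 471 CPM in fl/fl 1 but 67.8 in fl/fl 2, and Cnn1 was at 0 in +/+ 2. The mixture of the 5 genes therefore differed between sections, with Tagln leading in 3 sections and Myh11 in +/+ 2.

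Part of the signal of these genes lay close to the background of the assay. Probes for 1135 olfactory receptor genes, which pancreas is not known to transcribe, gave a median of 0.251 CPM in +/+ 1, 4.96 in +/+ 2, 8.12 in fl/fl 1 and 12.6 in fl/fl 2 over all spots. Cnn1 over all spots was at 0.320, 5.85, 8.57 and 13.3 CPM, and between 36.1% and 47.7% of the olfactory receptor genes were at or above it in each section. Acta2 was exceeded or equalled by 79.9% of them in +/+ 2 and 94.5% in fl/fl 2, but by 0% in +/+ 1. Tagln, Myh11 and Des were above nearly all of them in +/+ 1, fl/fl 1 and fl/fl 2. In the muscle marker spots the mean of the olfactory receptor genes was 1.44, 2.60, 1.07 and 1.12 times that of the other spots. A part of the spots with 2 UMIs may hold background counts, and which ones was not tested.

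**Figure D2:**
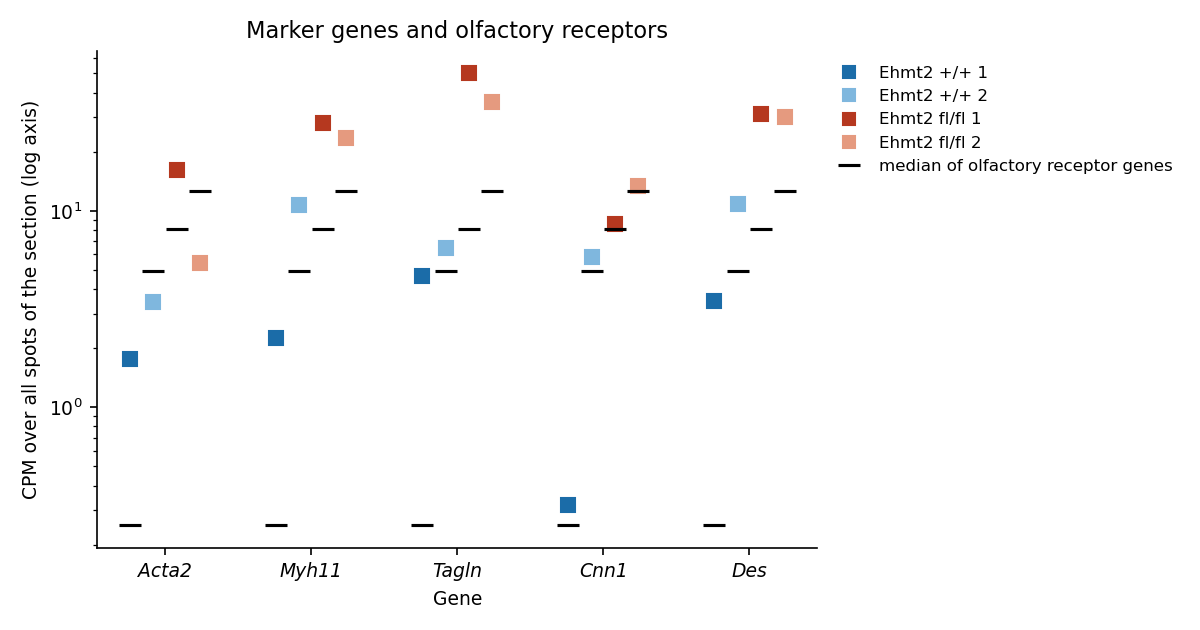
CPM of the 5 defining genes over all spots of each section (squares, log axis), with the median of 1135 olfactory receptor genes of the same section as a black bar. Cnn1 sits at the bar in all 4 sections and Acta2 below it in +/+ 2 and fl/fl 2, while Tagln, Myh11 and Des lie above it.

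The muscle marker spots were then compared with the other spots of the same section for genes outside the rule, which asks what else these regions express. Eln, which encodes elastin, and Myl9, the regulatory light chain of smooth muscle myosin, were higher in the muscle marker spots, as was Ccn5, a secreted matricellular protein made by vascular smooth muscle. Counts were summed per section and class, since spots of 1 section are not replicates, and the section was kept as a block. With edgeR's quasi-likelihood test and Benjamini-Hochberg adjustment, 3 of 18861 genes outside the rule were higher (0.0159%) and 0 were lower (0%). At an unadjusted p below 0.05 there were 71 genes higher and 1265 lower, and DESeq2 called 11 higher and 0 lower.

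Myl9 (GRCm38 chr2:156775420-156781658, + strand) stood at 56.7 CPM in the muscle marker spots of +/+ 1, 0 in +/+ 2, 174 in fl/fl 1 and 58.1 in fl/fl 2, from 48 UMIs in all. In the other spots it was at 2.33, 8.66, 18.5 and 19.5 CPM. The 3 sections with more than 9 spots were each above their own other spots, and the 0 UMIs of +/+ 2 allow up to 217 CPM. The log2 fold change was 2.33 (SE 0.47, adjusted p = 2.97e-03, edgeR quasi-likelihood test).

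The sequence upstream of Myl9 is shown because it alone of 13 examined held an exact match to the CArG box. This element is bound by serum response factor with its muscle coactivators. RefSeq promoters on GRCm38 gave an entry for 13 of the 20 genes looked for, and the 250 bases before each start were searched. Only the strict pattern CCWWWWWWGG, with W for A or T, was counted. A site with a mismatch would have been missed, so the other promoters examined may still hold a CArG box. The motif reads the same on both strands. It was found before 482 of 32851 starts in the table (1.47%), and a match is a description of the letters and does not show binding. The stretch below, chr2:156775214-156775419 on the + strand, ends just before the annotated start of Myl9, with the CArG box in capitals, its first base 161 bases before the RefSeq start.
Myl9 upstream: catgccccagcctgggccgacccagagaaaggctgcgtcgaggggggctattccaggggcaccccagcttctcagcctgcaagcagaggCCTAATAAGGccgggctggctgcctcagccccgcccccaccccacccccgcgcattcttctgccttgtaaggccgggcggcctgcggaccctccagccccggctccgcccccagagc

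Eln (chr5:134702593-134747323, - strand) stood at 148 CPM in the muscle marker spots of +/+ 1, 72.4 in +/+ 2, 635 in fl/fl 1 and 107 in fl/fl 2. The other spots had 5.93, 16.7, 53.9 and 47.4 CPM. Eln was thus higher in each of the 4 sections, 24.9-fold in +/+ 1 and 2.25-fold in fl/fl 2, although the value of +/+ 2 rested on 1 UMI. The log2 fold change was 2.25 (SE 0.52, adjusted p = 0.0290, edgeR quasi-likelihood test). Ccn5 (chr2:163820861-163833146, + strand) was at 43.1, 72.4, 71.7 and 38.7 CPM against 0.877, 5.10, 16.5 and 26.9 in the other spots, from 31 UMIs in all, 1 of them in +/+ 2. Its log2 fold change was 2.21 (SE 0.49, adjusted p = 0.0148, edgeR quasi-likelihood test), and DESeq2 did not call it (adjusted p = 0.156).

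These calls rested on 2 of the sections. Leaving out +/+ 1 left 0 genes called and leaving out fl/fl 1 left 0, with 545 and 673 genes at an unadjusted p below 0.05, while leaving out +/+ 2 gave 6 higher and leaving out fl/fl 2 gave 5. The log2 fold change of Myl9 stayed between 2.11 and 2.81 and that of Eln between 1.84 and 2.83 over these 4 fits, and that of Ccn5 fell to 1.11 without +/+ 1. The scaling also moved the zero point. The median log2 fold change over all genes tested was -0.56, and it was 0.20 with library sizes alone, a setting that called 135 genes higher and 10 lower, and -0.07 with DESeq2. The scaling factor of the 9 spots of +/+ 2 was 3.85, the largest of the 8 libraries.

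**Figure D3:**
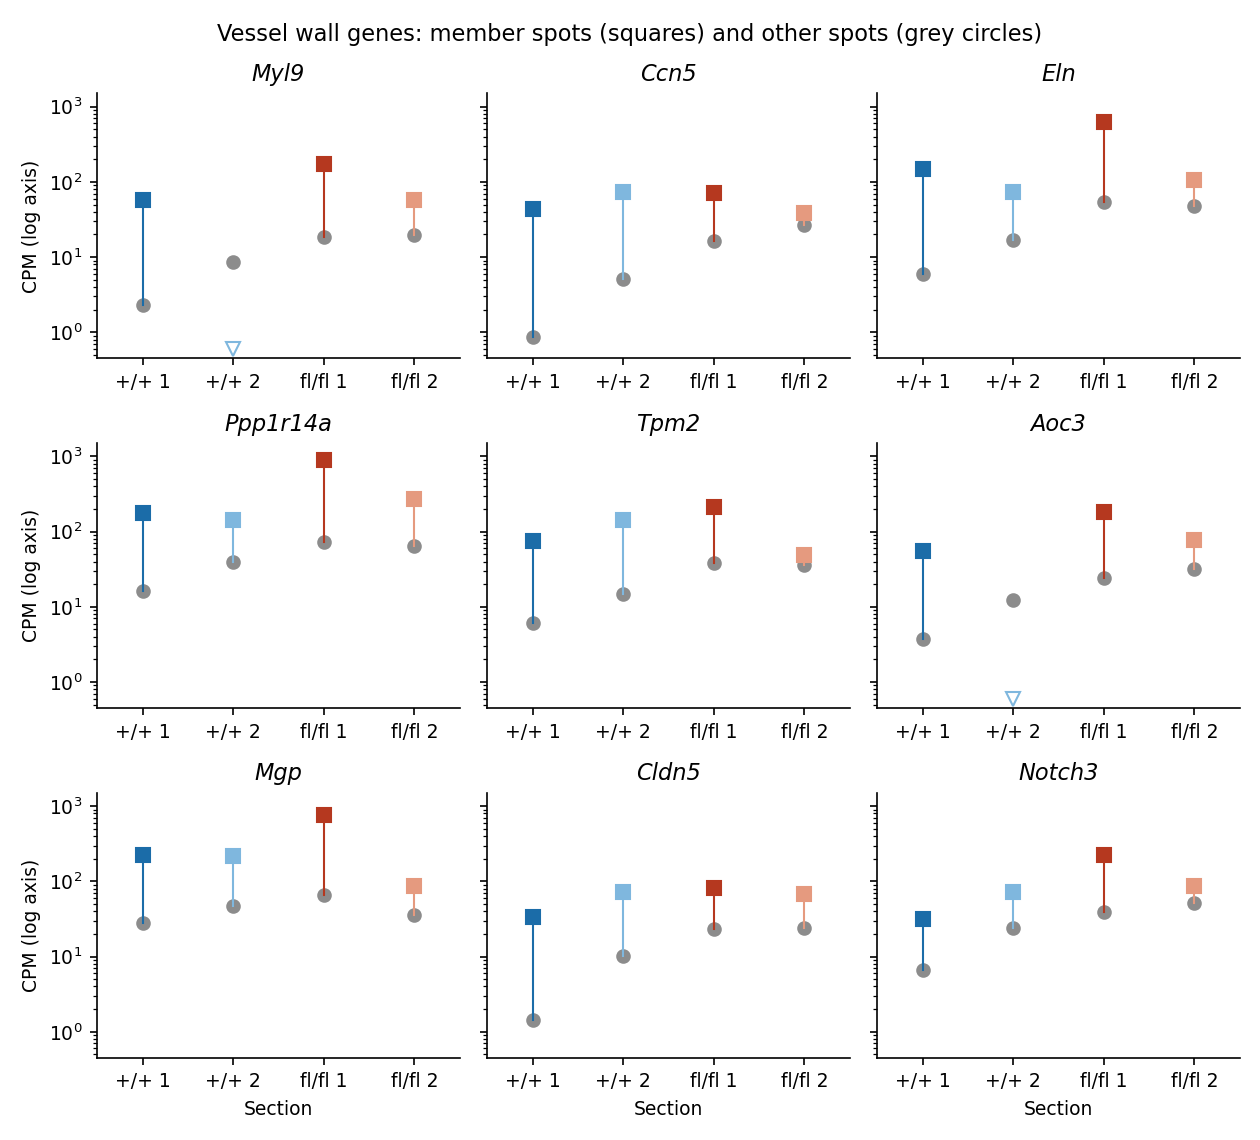
CPM (log axis) of 9 genes in the muscle marker spots (squares) and the other spots (grey circles) of each section; a triangle at the foot marks a gene with 0 UMIs in the muscle marker spots. Squares lie above circles in every section with a count, and the gap is narrow in fl/fl 2 for Ccn5 and Tpm2. In +/+ 2 a single UMI (72.4 CPM) already lies above each circle.

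The contractile apparatus was represented by 25 further genes. Of these, 1 was called higher (Myl9) and 0 lower, 6 were higher at an unadjusted p below 0.05, and the median log2 fold change was 0.04 against -0.56 over all genes tested. Ppp1r14a, an inhibitor of the phosphatase that ends contraction, had 196 UMIs in the muscle marker spots. It stood at 179, 145, 891 and 271 CPM in +/+ 1, +/+ 2, fl/fl 1 and fl/fl 2 against 16.3, 39.7, 72.5 and 64.7 in the other spots. Every section lay above its own other spots, with a log2 fold change of 1.96 (SE 0.52) that did not pass the adjustment (edgeR adjusted p = 0.230). Tpm2, the β-tropomyosin of muscle, was at 74.9, 145, 215 and 48.4 CPM against 6.04, 15.0, 38.6 and 36.1, with an edgeR adjusted p of 0.625. DESeq2 called both of these genes higher. Tpm1 and Myl6, which most cells express, were nearer to the other spots. Tpm1 was 1.62, 0.739, 2.26 and 1.38 times their level and Myl6 1.35, 0.952, 1.48 and 1.12 times, and neither passed the test (edgeR adjusted p = 0.805 and 0.677).

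The summed level of the contractile list, without the 5 defining genes, was 2138 CPM in +/+ 1, 1810.2 in +/+ 2, 6215 in fl/fl 1 and 3292 in fl/fl 2. That was 1.77, 1.32, 2.18 and 1.22 times the other spots, and Myl6 was the most abundant gene in each section. Relative to the spots of the same section richest in fibroblast transcripts, the list was at 0.940, 0.831, 1.86 and 1.04. Spots in both sets were counted only as muscle marker spots, here and in the later list ratios of this kind. The spots with 3 or more marker UMIs had 1.99, 1.33, 2.58 and 1.21 times the contractile level of those with 2 UMIs. In +/+ 2 this ratio rested on 1 spot with 3 UMIs of the list, and the split uses the same marker counts as the choice of the spots, so it is a description. These ratios are on the CPM scale, and the digestive enzymes took less of the muscle marker spots (60.4, 38.0, 14.9 and 15.5% of UMIs) than of the other spots (65.1, 54.4, 22.9 and 22.1%), which by itself raises the CPM of all other genes. A higher level in a spot can also come from more muscle cells or from more RNA per cell, and these cannot be told apart.

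Genes that set the tone of the muscle were examined next. Among 25 genes of excitation and calcium handling, 24 were tested and 0 called higher or lower by edgeR, with 1 higher and 0 lower at an unadjusted p below 0.05. The higher gene was Kcnmb1, the β-subunit of the large-conductance potassium channel of smooth muscle. It had 16 UMIs, none of them in +/+ 2, and a log2 fold change of 1.14 (SE 0.54, edgeR adjusted p = 0.625). The list summed to 1.34, 1.77, 1.42 and 1.12 times the other spots, against 1.44, 2.60, 1.07 and 1.12 for the olfactory receptor background. The 25 receptor genes, adrenergic, angiotensin, endothelin and others, gave ratios of 1.35, 1.25, 1.42 and 1.29, and 0 of the 22 tested were called or had an unadjusted p below 0.05. Of 26 transcription factors of muscle, 25 were tested and likewise 0 were called or passed the unadjusted threshold. Myocd, the coactivator that drives the smooth muscle programme, had 3 UMIs in all muscle marker spots, and Srf, its partner, had 33.

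Whether the spots were vessel wall or the muscle of a hollow organ was checked with marker lists. The summed levels of the vessel wall lists were above the other spots in all 4 sections. The elastic fibre and vessel matrix list summed to 3.35, 1.48, 2.39 and 1.36 times the other spots in +/+ 1, +/+ 2, fl/fl 1 and fl/fl 2. The mural cell list, which holds genes of vascular smooth muscle and pericytes, gave 2.86, 2.76, 2.27 and 1.49, and the blood endothelium list 2.93, 1.48, 1.77 and 1.30. In +/+ 2 the elastic fibre and endothelial ratios, and those of the contractile and fibroblast lists, were below the 2.60 of the olfactory receptor genes. Relative to the spots of the same section richest in fibroblast transcripts, the elastic fibre list was at 0.481, 0.626, 1.46 and 0.640, the endothelial list at 0.502, 0.652, 1.28 and 0.868 and the mural list at 0.645, 1.24, 1.79 and 0.990, so the first and second of these were higher in the muscle marker spots of fl/fl 1 only. In the test, 1 of 18 elastic fibre genes was called higher (Eln), and 0 of 24 mural and 0 of 27 endothelial genes were called by edgeR, with 5 and 3 higher at an unadjusted p below 0.05. DESeq2 called Aoc3 of the mural list and Cldn5 of the endothelial list.

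Aoc3, an amine oxidase of vascular smooth muscle, stood at 54.5, 0, 184 and 77.5 CPM against 3.74, 12.2, 24.4 and 31.7 in the other spots (log2 fold change 1.83, SE 0.47, edgeR adjusted p = 0.206). Cldn5, the claudin of endothelial tight junctions, stood at 34.0, 72.4, 81.9 and 67.8 CPM against 1.45, 10.2, 23.0 and 24.2 (1.84, SE 0.48, edgeR adjusted p = 0.206). Notch3, a receptor of mural cells, stood at 31.8, 72.4, 225 and 87.1 CPM against 6.64, 23.9, 39.4 and 52.2. Sections with counts were above their other spots for all of these genes, and fl/fl 2 showed the smallest ratio for each. In +/+ 2 the values of Cldn5 and Notch3 rested on 1 UMI each. Any count there would lie above the other spots, so that section adds nothing to this agreement. Pdgfrb, the receptor that recruits mural cells, was 2.09, 5.21, 2.03 and 1.90 times higher, from 67 UMIs, and its log2 fold change of 0.28 (SE 0.48) did not pass. The pericyte gene Rgs5 was at 22.7, 0, 154 and 136 CPM against 11.1, 20.4, 150 and 118, so the fl/fl spots differed little from the rest.

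Markers of visceral muscle differed between sections. The 16 genes of that list other than Des summed to 38.6, 72.4, 215 and 290.5 CPM in the muscle marker spots, with 9, 15, 5 and 4 of the 16 at 0. The ratio to the other spots was 2.90, 0.63, 1.04 and 1.12. The most abundant gene was Smtn in +/+ 1 and fl/fl 2, Actg2 in fl/fl 1 and Gata5 in +/+ 2, where it rested on 1 UMI. Actg2, the actin of visceral muscle, had 10 UMIs over the muscle marker spots, none of them in +/+ 2 or fl/fl 2, with a log2 fold change over the other spots of 1.74 (SE 0.61, edgeR adjusted p = 0.625). It was the 1 gene of 13 tested in this list that was higher at an unadjusted p below 0.05, and 0 were called. Hand1, Tacr2 and Pcp4 were at 0 in the muscle marker spots of all 4 sections. The ratio was thus largest in +/+ 1, from 17 UMIs, and the difference between sections was not tested. The part of this list in the muscle signal of +/+ 1 was not tested either. The nerve and enteric glia list gave 1.56, 2.16, 1.0 and 0.89, the interstitial cells of Cajal 1.29, 1.22, 1.39 and 1.39, and the skeletal and cardiac muscle list 0.37, 2.86, 1.11 and 1.16, each from few counts. The gut and stomach epithelium lists were at 0.97, 0.75, 0.70 and 0.84 and at 0.98, 1.18, 0.98 and 0.92, and their leading genes, Zg16 and Tff2, are also abundant in acinar tissue. In the section +/+ 2, 8 of 9 spots held 2 marker UMIs and Myl9, Aoc3 and Rgs5 were at 0, so that section adds little to the name smooth muscle. The contractile list stood clearly above the spots richest in fibroblast transcripts in fl/fl 1 (1.86), but not in +/+ 1 (0.940) or fl/fl 2 (1.04). In fl/fl 2, 51 of 66 spots held 2 marker UMIs.

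**Figure D4:**
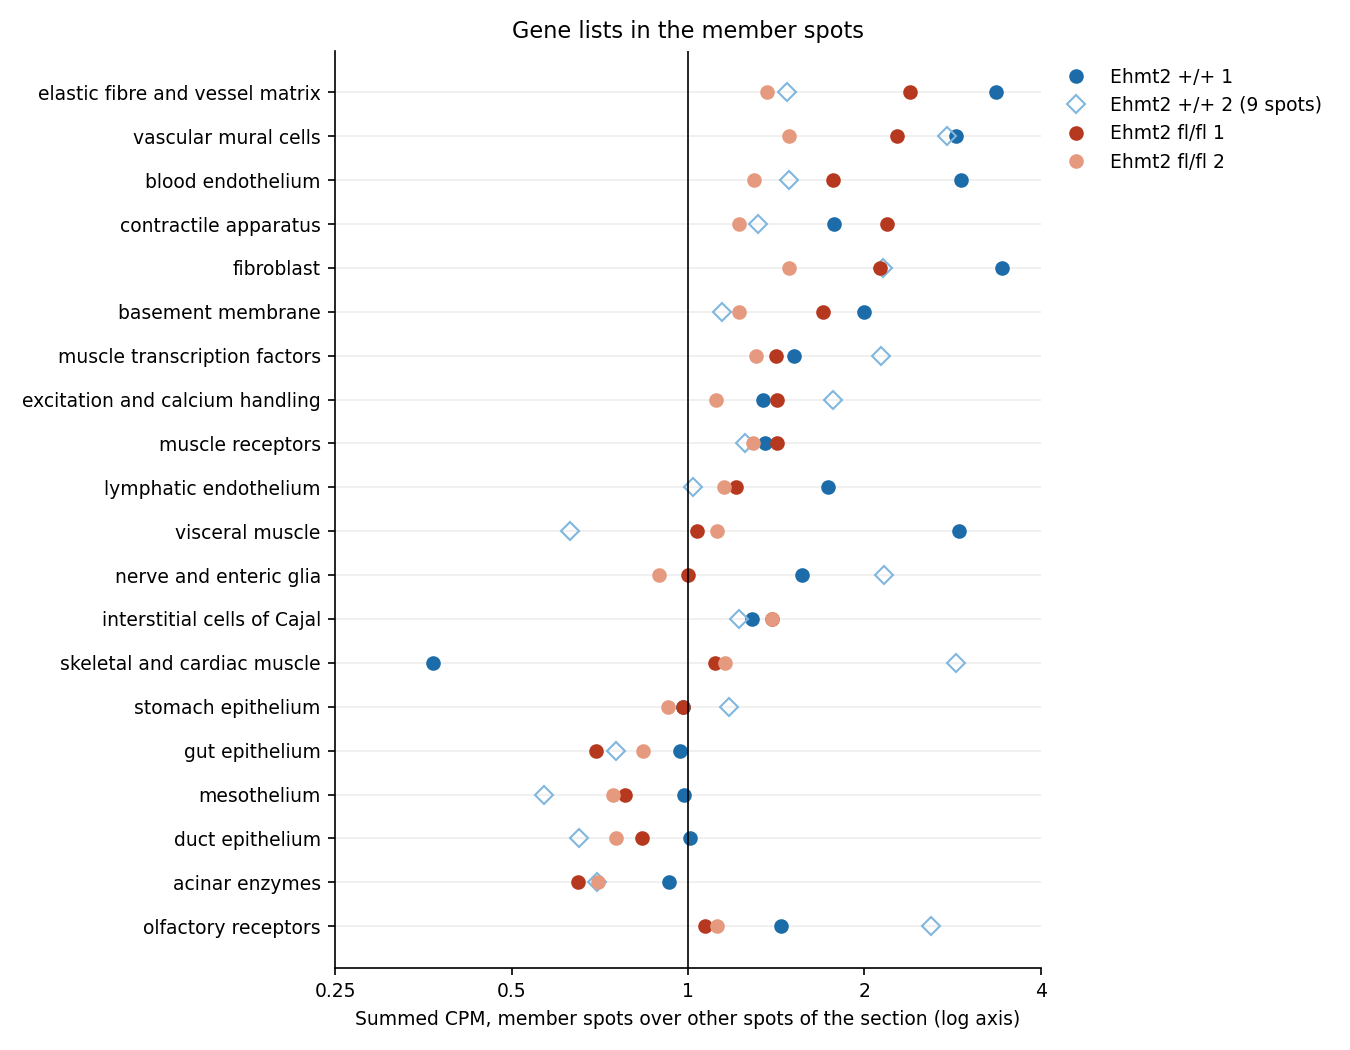
Summed CPM of each gene list in the muscle marker spots divided by that in the other spots of the same section (log axis, 1 marks equal levels), with one symbol per section and an open diamond for the 9 spots of +/+ 2; the defining genes are left out of the lists. Elastic fibre, mural, endothelial, contractile and fibroblast lists lie above 1 in all 4 sections, as do several other lists and the olfactory receptor background (1.44, 2.60, 1.07 and 1.12), and the acinar enzyme list lies below 1 in all 4.

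The summed level of fibroblast transcripts was above the other spots in each section, though no single gene of the list was called by edgeR. The fibroblast list summed to 3.44, 2.15, 2.13 and 1.49 times the other spots, and 23 of 75, 0 of 9, 16 of 100 and 5 of 66 muscle marker spots were also among the 100 spots of their section richest in Col1a1, Col1a2, Col3a1, Dcn and Lum. This was 30.7, 0, 16 and 7.58% of the muscle marker spots and 23, 0, 16 and 5% of the fibroblast-rich spots. Col3a1, a collagen of the adventitia, was the most abundant of the list in +/+ 1 at 636 CPM against 198, and Col1a2 in the others, reaching 1802 CPM against 957 in fl/fl 1. Mgp, the matrix Gla protein that keeps arteries from calcifying, was at 222, 217, 768 and 87.1 CPM against 27.9, 47.6, 65.5 and 35.8 (log2 fold change 1.61, SE 0.53, edgeR adjusted p = 0.625, called by DESeq2). Of 20 fibroblast genes tested, 0 were called by edgeR and 1 was higher at an unadjusted p below 0.05. The basement membrane list gave 2.0, 1.14, 1.70 and 1.22, led by Col4a1, a chain of type IV collagen, with 488 UMIs.

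Lists of other cells were raised to different degrees in the sections. The red blood cell list was 6.09 times higher in +/+ 1, from 151 UMIs of 4 of its 6 genes and led by Hba-a2, and 1.54, 1.60 and 1.76 times in the others. The lymphocyte list was 6.61 times higher in +/+ 2, from 12 UMIs, and 4.49 times in fl/fl 2, where Ighm alone gave 108 of 182 UMIs, against 1.24 and 0.84 in +/+ 1 and fl/fl 1. The fat list was 2.08, 1.71, 1.53 and 3.08 times higher, led by Fabp4. The islet list was 2.47 times higher in +/+ 1 and 0.79, 0.52 and 1.14 in the others. The acinar enzyme list was lower in every section, at 0.93, 0.70, 0.65 and 0.70. Of 32 enzyme genes tested, 0 were called by edgeR and 11 were lower at an unadjusted p below 0.05. Over all 18861 genes 1265 were lower at that threshold, and 98 with library sizes alone. The part of these cells in the values above was not tested.

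The levels were also counted over sections without a fit. Of the 1194 genes tested with at least 50 UMIs in the muscle marker spots, 223 (18.7%) were above the other spots in all 4 sections and 66 (5.53%) below in all 4, and this filter favours genes that are high in these spots. Contractile genes were above in 4 of 9, elastic fibre genes in 3 of 4 (Eln, Emilin1 and Fbn1), endothelial genes in 2 of 2 (Plvap and Sox18), mural genes in 1 of 2 and fibroblast genes in 5 of 9. Leaving aside +/+ 2, 401 of the 1194 genes (33.6%) were above in the remaining 3 sections, with 6 of 9 contractile and 8 of 9 fibroblast genes. Emilin1, an elastin microfibril protein, was 2.70, 1.67, 1.94 and 1.88 times higher, and Plvap, a protein of fenestrated endothelium, 2.30, 2.07, 1.49 and 1.13 times. The acinar enzyme genes were below in 18 of 27.

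The fibroblast-rich spots are the stroma most like the vessel wall, and the same test was run between the classes after spots in both had been left out. Outside the defining genes of both classes, 4 of 969 genes were higher in the muscle marker spots (0.413%) and 11 lower (1.14%). The lower genes included 2 of 2 tested fat genes and 1 of 4 tested macrophage genes. The split moved with the scaling, to 0 higher and 34 lower with library sizes alone and 10 higher and 2 lower with DESeq2. Car3, a carbonic anhydrase of adipocytes, stood at 11.3, 72.4, 92.2 and 716 CPM in the muscle marker spots and at 299, 194, 432 and 1562 in the fibroblast-rich spots of +/+ 1, +/+ 2, fl/fl 1 and fl/fl 2 (levels of the muscle marker spots include the shared ones). Its log2 fold change was -2.28 (SE 0.33, edgeR adjusted p = 6.16e-06). Fabp4, the fatty acid binding protein of fat, had -1.34 (SE 0.23, edgeR adjusted p = 9.12e-05). Every section had less of both genes in the muscle marker spots, though with spots chosen after thinning to 500 UMIs the value of Fabp4 was 0.17. Apoe, a lipoprotein made by macrophages, had a log2 fold change of -1.40 (SE 0.26), the chemokine Ccl6 of -1.19 (SE 0.23) and the protease inhibitor Slpi of -1.28 (SE 0.33), with edgeR adjusted p of 3.77e-04, 9.27e-04 and 0.0226. Dnm1 and S100a6 were also among the lower genes. So were Hp, Stab1 and Ccl9, whose CPM was not below that of the fibroblast-rich spots in all 4 sections.

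None of the 4 genes that were higher in this comparison is a muscle gene. Erp27, a chaperone of the endoplasmic reticulum abundant in acinar cells, had a log2 fold change of 0.91 (SE 0.22, edgeR adjusted p = 0.0202; -0.44 with spots chosen after thinning), and Klk1 and Rnase1 are products of acinar cells. Ighm, the heavy chain of IgM, came mostly from fl/fl 2 with 108 of its 116 UMIs. Acinar enzymes took 48.8, 32.2, 11.5 and 5.69% of UMIs in the fibroblast-rich spots, less than in the muscle marker spots in each section, and the part of this difference in the calls was not tested. Of 7 contractile genes tested, 0 were called and 3 were higher at an unadjusted p below 0.05, against 54 higher and 60 lower of all 969 genes. Eln did not separate the classes (log2 fold change -0.06, SE 0.34, edgeR adjusted p = 0.985), nor did Ppp1r14a (0.35, SE 0.32, edgeR adjusted p = 0.794). A value that does not pass the test does not show that the classes are alike. Leaving out +/+ 1 or fl/fl 2 reduced the calls to 6 each, and leaving out +/+ 2 raised them to 61.

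The genotype comparison asks what differed in the muscle marker spots when Ehmt2 had been removed from the epithelium. Ehmt2 had 16, 0, 2 and 2 UMIs in the muscle marker spots, or 36.3, 0, 20.5 and 19.4 CPM in +/+ 1, +/+ 2, fl/fl 1 and fl/fl 2. In the other spots it stood at 19.6, 3.95, 9.92 and 12.0 CPM. The level in +/+ 1 was far above the median olfactory receptor gene of its section, that in +/+ 2 below it and that in fl/fl 2 near it. Whether the probes for Ehmt2 lie in the deleted part of the gene is not given in the sources used here, so these counts do not check the labels.

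Mmp7, Il1rn and 10 further genes were higher in the muscle marker spots of Ehmt2 fl/fl mice. With edgeR's quasi-likelihood test on 2 against 2 sections, 12 of 1346 genes were higher in fl/fl (0.892%) and 2 lower (0.149%), with 191 and 96 at an unadjusted p below 0.05. Mmp7, a matrix metalloproteinase, stood at 6.81 and 0 CPM in +/+ 1 and +/+ 2 and at 553 and 513 in fl/fl 1 and fl/fl 2 (log2 fold change 5.23, SE 0.65, adjusted p = 0.0273). Il1rn, the interleukin 1 receptor antagonist, stood at 43.1 and 72.4 against 922 and 678 CPM (3.15, SE 0.54, adjusted p = 0.0475). The groups did not overlap for either gene, though a count of 0 in +/+ 2 allows up to 217 CPM, and all values of fl/fl given here lie above that. Slpi, Hp (haptoglobin), the histone gene Hist1h1a and Pf4 (platelet factor 4) were also higher, with log2 fold changes of 3.99, 3.65, 3.29 and 3.07. For Slpi, Hist1h1a and Pf4, which had 0 UMIs in +/+ 2, 1 fl/fl section lay below the 217 CPM that +/+ 2 could have missed, and Hp had 1 UMI there. Tnfaip2 and Tgfbi, with 2.89 and 2.66, were among the autosomal genes called. A further 3 of the 12, Gm20854, Gm21310 and Gm20914, lie in repeated copies on the Y chromosome, so their counts are uncertain, and they had 0 UMIs in both +/+ sections.

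The 2 genes lower in fl/fl were Spns2, a sphingosine-1-phosphate transporter, and Ang, an angiogenic ribonuclease. Spns2 stood at 161 and 217 CPM in +/+ against 61.4 and 48.4 in fl/fl (log2 fold change -2.54, SE 0.41, adjusted p = 0.0475, edgeR quasi-likelihood test). Ang stood at 179 and 145 against 71.7 and 38.7 (-2.63, SE 0.45, adjusted p = 0.0475). The digestive and acinar products Pnlip, Reg3b and Rnase1 had log2 fold changes of -4.50, -4.10 and -3.71 and did not pass (edgeR adjusted p = 0.0627, 0.0603 and 0.0537). Digestive enzymes filled 60.4 and 38.0% of the UMIs of these spots in +/+ 1 and +/+ 2 but 14.9 and 15.5% in fl/fl 1 and fl/fl 2.

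The other spots of the same sections had the same order of levels. There Mmp7 stood at 2.77 and 14.6 CPM in +/+ against 462 and 526 in fl/fl, and Il1rn at 41.2 and 67.3 against 1143 and 837. Spns2 stood at 153 in both +/+ sections against 69.9 and 73.6 in fl/fl. A test of the difference between muscle marker and other spots gave adjusted p of 0.887 for Mmp7 and 0.719 for Il1rn (edgeR, genotype by class), so a genotype difference particular to the muscle marker spots was not detected for these genes. No gene of the contractile, mural, endothelial, elastic fibre or fibroblast lists was called between genotypes (0 of 9, 2, 2, 6 and 10 tested, edgeR). Of these, 1, 2, 1, 2 and 2 were higher at an unadjusted p below 0.05 and 0 lower. EdgeR called 0 of 5 macrophage genes, 0 of 8 immediate early and cytokine response genes and 0 of 8 of the synthetic state of muscle. In each of these lists 4 were higher at an unadjusted p below 0.05. Over all 1346 genes tested, 191 were higher and 96 lower at that threshold. Only 1346 genes had counts enough for the test, and none of the visceral muscle or transcription factor lists was among them. The calls changed with each section left out, but such a fit holds 1 section in a group, so its counts are not given. The median log2 fold change was 0.66 without +/+ 1 and 0.04 without +/+ 2. It was 0.23 without fl/fl 1 and 0.21 without fl/fl 2. The split also moved with the scaling: library sizes alone, which put the median log2 fold change at 1.87 in place of 0.29, gave 961 higher and 30 lower, and DESeq2 gave 4 and 27. With the slide as a block, an alternative chosen after seeing the data, 22 were higher and 20 lower.

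**Figure D5:**
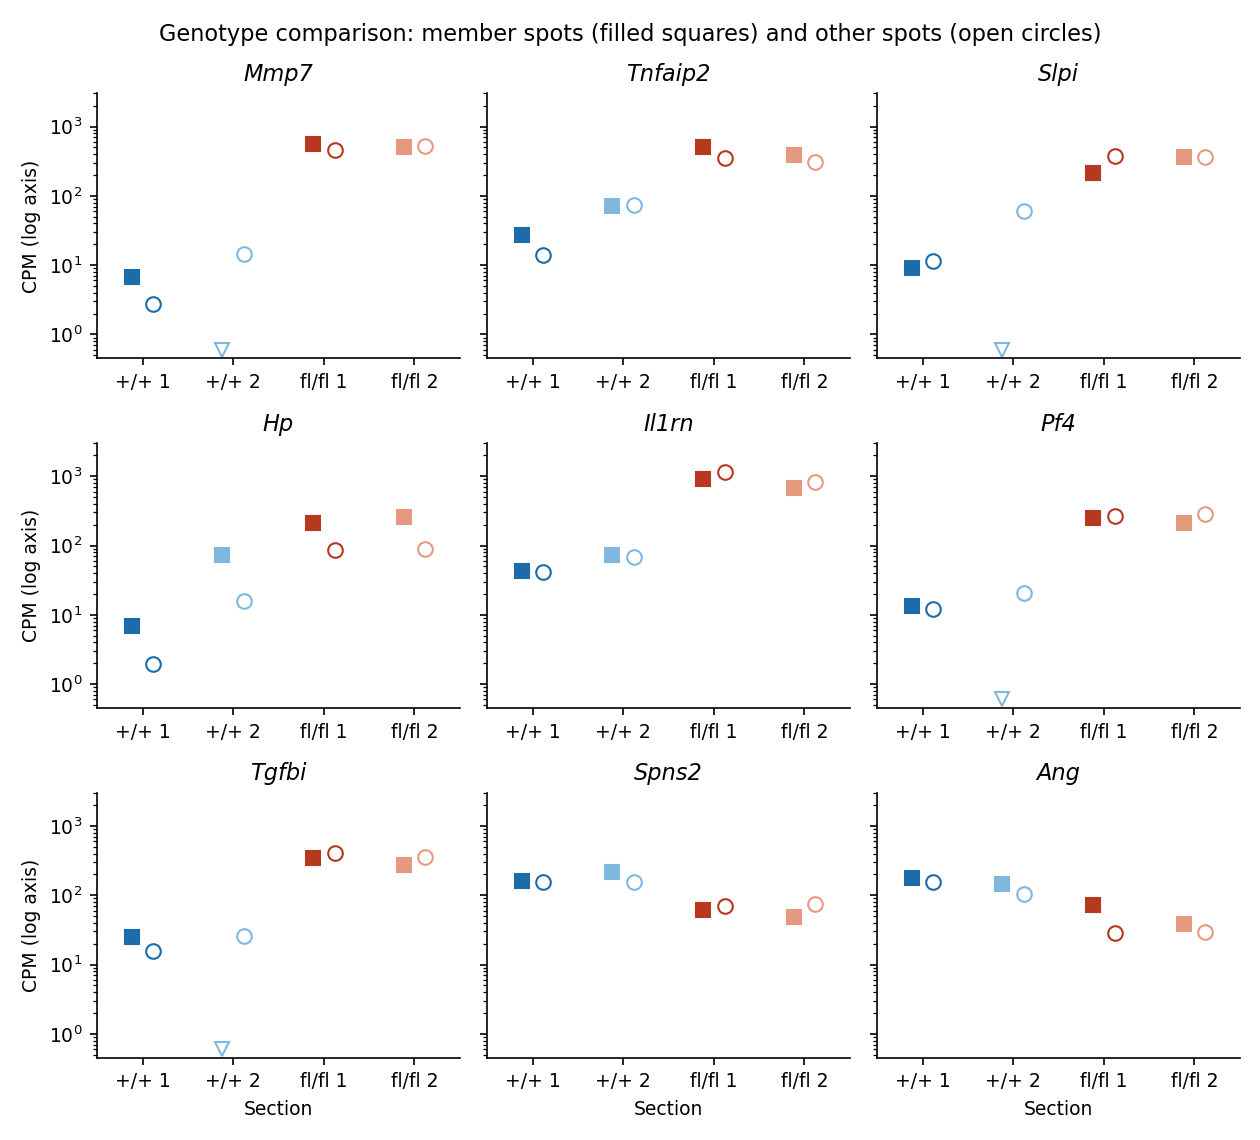
CPM (log axis) of 9 of the 14 genes called between genotypes, in the muscle marker spots (filled squares) and the other spots (open circles) of each section; a triangle at the foot marks 0 UMIs. The circles follow the squares, with fl/fl sections above +/+ sections for the first 7 genes and below for Spns2 and Ang.

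Whether the difference between muscle marker and other spots depended on genotype was tested next, and no gene passed. The interaction of genotype and class called 0 of 18861 genes (0% in either direction, edgeR quasi-likelihood test), with 1672 above and 31 below at an unadjusted p below 0.05, and DESeq2 called 0, with 22 above and 91 below at an unadjusted p below 0.05. The direction of this split was set by the scaling: library sizes alone gave 61 above and 517 below and a median over all genes of -0.06, against 1.18 with TMM factors. Without +/+ 1 or +/+ 2 the interaction called 247 and 387 genes, where a single +/+ section stands for its group, and without fl/fl 1 or fl/fl 2 it called 0. Fxyd1, a regulator of the sodium pump in muscle, and Mfge8, the protein from which the medin of arteries is cut, had 65 and 53 UMIs, the most among the 5 genes of each sign with the smallest p whose scaled counts did not overlap between genotypes. Fxyd1 was 1.68 and 1.83 times the other spots in +/+ and 3.28 and 3.65 times in fl/fl (adjusted p = 0.443, edgeR). Mfge8 was 1.27 and 0 times in +/+ and 4.08 and 1.87 times in fl/fl (adjusted p = 0.443, edgeR). The 0 UMIs of Mfge8 in +/+ 2 allow up to 217 CPM, so neither a ratio nor a lack of overlap can be read there. The other 8 had 18 UMIs or fewer, too few for a direction to be read. Ccn5, whose groups overlapped, had an interaction of -2.67 (SE 0.69, adjusted p = 0.443, edgeR).

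The amount of muscle marker signal over whole sections was compared between genotypes as well. Summed over all spots with at least 500 UMIs, the 5 defining genes took 12.4 and 37.3 CPM in +/+ 1 and +/+ 2 and 134 and 108 CPM in fl/fl 1 and fl/fl 2. The means were 24.9 ± 17.5 in +/+ and 121 ± 18.1 in fl/fl (SD, n = 2 each), a difference of 96.1 CPM. The fl/fl section was higher on both slides and the groups did not overlap, and no test is given, since these genes chose the spots. Removing 5 times the mean olfactory receptor level, chosen after seeing the data, left 11.1 and 11.5 CPM in +/+ and 90.5 and 44.7 in fl/fl, a difference of 56.3. Leaving digestive enzymes out of the total gave 35.6 and 81.7 against 173 and 139 CPM.

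The share of spots with 2 or more marker UMIs followed a different order. It was 1.22% in +/+ 1 (95% exact Clopper-Pearson interval 0.961 to 1.53), 0.114% in +/+ 2 (0.0521 to 0.216), 1.71% in fl/fl 1 (1.41 to 2.05) and 1.02% in fl/fl 2 (0.788 to 1.29), and the intervals cover counting error only. After every spot had been thinned to 500 UMIs, the shares were 0.179, 0.0379, 0.693 and 0.262%, and spots with at least 1 marker UMI made up 1.06, 1.87, 5.97 and 5.56%. At equal total UMIs both fl/fl sections were above both +/+ sections in each of these shares. Digestive enzymes took 65.1 and 54.4% of UMIs in the other spots of +/+ 1 and +/+ 2. In fl/fl 1 and fl/fl 2 they took 22.9 and 22.1%. Fewer of the 500 UMIs were thus left for other genes in +/+, and the part of this in these shares was not tested. For 2 or more marker UMIs, the 95% intervals of +/+ 1 (0.0894 to 0.320%) and fl/fl 2 (0.153 to 0.419%) overlapped. The background per UMI was also higher in the fl/fl sections, as the olfactory receptor medians above show, and its part in these shares was not tested.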

How the data were processed

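Formalin-fixed sections of 4 mouse pancreases were measured with the CytAssist Visium assay and its mouse probe set. The deposited values are raw UMI counts per gene and spot, made by the authors with Space Ranger against mm10 (per the labels and the file headers) and not normalized. Of 32589 features, 304 probes marked deprecated were left out. Spots with at least 500 UMIs were kept, and neither doublet calling nor clustering was used, since a spot is a region.

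Counts were summed per section and spot class and given per 1000000 UMIs, or tested with edgeR 4.0.16 (quasi-likelihood test, TMM factors, low genes removed by filterByExpr at min.count 10, threshold 0.05 after Benjamini-Hochberg adjustment) in R 4.3.3. Section was a block between classes, and genotype was compared over the 4 sections. The SE of a log2 fold change was derived from the test, as its absolute value divided by the square root of the F statistic. Labels give no replicate numbers and each section is 1 mouse, so sections are numbered by accession order. The scripts were tested on simulated data. Intervals of shares came from scipy 1.17.1. Alternatives were DESeq2 1.42.0, library sizes alone, no filter, enzymes left out of counts or score, other depths, spot numbers and thinning, and each section left out. The members and gene lists were chosen with earlier results of these data known. Named genes were those called that kept their direction in all 4 sections with at least 50 UMIs (largest changes first), for genotype the 10 largest called changes of each sign or otherwise those with the smallest p and no overlap between groups, the defining genes, Ehmt2 and genes of the lists. Ccn5 and the remaining called genes outside these limits are named because few genes were called, a choice made after their values were seen. One called gene is not reported here.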

Additional observations from a re-analysis of the deposited data

Results flagged for a closer look

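For 3 gene lists the level in the muscle marker spots relative to the other spots ran one way in both +/+ sections and the opposite way in both fl/fl sections. The difference between genotypes was not tested for the list ratios. Of the single genes of the macrophage, synthetic state and immediate early lists, 14, 22 and 22 were tested for an interaction of genotype and class, and 0 were called by edgeR, with 1 of each list above at an unadjusted p below 0.05. The median fitted interactions were 0.57, 0.73 and 0.999, opposite in sign to the differences in CPM ratio given here and below the median of 1.18 over all genes, so the direction depends on the scaling. The olfactory receptor background was at 1.44 and 2.60 in +/+ 1 and +/+ 2 and at 1.07 and 1.12 in fl/fl 1 and fl/fl 2, so its ratio was also lower in fl/fl, and its part in these differences was not tested. The macrophage list was 1.28 and 1.93 times the other spots in +/+ 1 and +/+ 2 and 0.76 and 0.93 times in fl/fl 1 and fl/fl 2, a difference in mean log2 ratio, fl/fl minus +/+, of -0.90. The list of the synthetic state of muscle and matrix activation, led by Spp1 (osteopontin), was at 1.24 and 1.52 against 0.98 and 0.89, a difference of -0.56. The list of immediate early and cytokine response genes, led by Jun, was at 1.12 and 1.11 against 0.93 and 0.96, a difference of -0.24. In summed level all 3 lists were higher in the fl/fl spots of both kinds. The macrophage list stood at 207 and 579 CPM in the muscle marker spots of +/+ 1 and +/+ 2, the latter from 8 UMIs, and at 1709.9 and 1336 in fl/fl 1 and fl/fl 2, against 162, 299.9, 2242 and 1434 CPM in the other spots.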

How the results depend on the processing

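The number of genes called between muscle marker and other spots, 3, moved to 145 with library sizes alone, 11 with DESeq2, 18 with spots chosen after thinning, 6 with 50 spots per section, 36 with at least 3 marker UMIs and 0 without the section block, and ranged from 0 to 6 with each section left out. Against fibroblast-rich spots, 15 became 34 with library sizes alone, 2 without the filter, 7 with enzymes left out of the score, 4 with thinning, 2 with 50 spots, 35 with 200 spots, 3 with at least 3 marker UMIs and 0 without the section block, and 6 to 61 with each section left out. Between genotypes, 14 became 991 with library sizes alone, 31 with DESeq2 and 0 without the filter (1495 at an unadjusted p below 0.05). It became 25 with enzymes left out of the score, 58 with at least 1000 UMIs, 36 with thinning and 0 with 50 spots (84 unadjusted). It was 2 with 200 spots, 158 with at least 3 marker UMIs and 42 with slide as a block. The number also changed with each section left out, where a group holds 1 section. For the interaction, 0 became 4 with library sizes alone, 1 with thinning and 1 with 50 spots, and 0 to 387 with each section left out. Subtracting the olfactory receptor level reduced the genotype difference in marker CPM from 96.1 to 56.3. Thinning reversed Fabp4 to 0.17, Erp27 to -0.44 and Oard1 to 0.023, and at least 3 marker UMIs put Oard1 at 0.093. The cause was not tested for any of these. Of the other values of named genes, 379 kept side and direction, 56 newly passed and 100 no longer passed. The alternatives of 3 marker UMIs, slide block and olfactory receptor subtraction were chosen after seeing the data.

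The labels give no replicate numbers that pair sections; the slide block above pairs the sections that shared a slide. Leaving out spots with gut or stomach transcripts was not run, since it left no muscle marker spot in either +/+ section. Depth limits these values, since +/+ 2 has 9 spots and most spots rest on 2 marker UMIs.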

Other observations

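Further lists were compared between muscle marker and other spots of +/+ 1, +/+ 2, fl/fl 1 and fl/fl 2. The lymphatic endothelium list was at 1.73, 1.02, 1.21 and 1.15 times the other spots and the neutrophil list at 2.46, 3.03, 1.04 and 1.24. The mesothelium list was at 0.98, 0.57, 0.78 and 0.74 and the duct epithelium list at 1.01, 0.65, 0.83 and 0.75. The muscle transcription factor list was at 1.52, 2.14, 1.41 and 1.31. None of these ratios was tested.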
